A study of Mus musculus with 12 samples.

Results

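The genes described here belong to families of developmental transcription factors: Hox, Dlx, Msx, Irx, Lhx, Tbx, Fox, Sox and the sine oculis genes (here Six3, Six4, Six5 and Six6), together with Uncx. They were chosen by name alone, as every probe whose platform gene symbol is a family name followed by a member code, leaving out Foxa1, Sox10, Sox17 and Sox18. This gave 121 probes of 112 genes, among 17589 probes of which 14136 carry the name of 1 gene, 12913 genes in all. The expression data came from mammary glands of mice that were 5 weeks old and carried a GFP reporter driven by the beta-actin promoter, which made the epithelium visible for microdissection. RNA of terminal end buds, the bulbous growing tips of the ductal tree, was hybridised in Cy5 on 6 arrays, and RNA of mature ducts was hybridised in Cy5 on another 6 arrays. All 12 arrays carried RNA of distal stroma, the fat pad that holds no epithelium, in Cy3. Every value is a log2 ratio of epithelial structure over stroma, so a value of 1 stands for 2-fold more RNA in the dissected structure. No source used here gives the base of the logarithm, which was taken as 2. A different base would rescale every ratio and leave its sign and its p-value as they are.

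These families share a common way of working. Each protein binds DNA through a domain that defines its family, the homeodomain in Hox, Dlx, Msx, Irx, Lhx, the sine oculis genes and Uncx, the T-box in Tbx, the forkhead domain in Fox and the HMG box in Sox. They are best known for laying out the body axes, limbs, heart, brain and skin appendages of the embryo, and several act when the mammary bud forms from the ectoderm. In the adult gland, members of the same families take part in keeping epithelial lineages apart and in the outgrowth of ducts. Fat cells and connective tissue carry their own sets, in particular Hox, Tbx and Fox genes that reflect where along the body a fat depot arose.

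Over the 121 probes, the median Pearson correlation of a pair of arrays was 0.876 within terminal end buds, 0.785 within ducts and 0.711 across structures, as a description across genes. Terminal end bud arrays had wider ratios over all probes, with SDs of 0.535 to 0.635 against 0.38 to 0.484 in ducts. The labels number the arrays from 190 to 203 and do not say what the numbers stand for. Within each structure, the arrays up to 193 (4 in all) had narrower ratios over the members than those from 196 on (8 in all). The SDs were 0.509 and 0.538 against 0.64 to 0.779 in terminal end buds, and 0.417 and 0.462 against 0.515 to 0.561 in ducts. Over all probes this did not hold throughout, as duct replicate 2 (number 193) had an SD of 0.462 and duct replicate 3 (number 196) of 0.417. No label says that arrays came from separate animals or that dyes were swapped. The p-values thus measure only how these arrays vary, possibly for technical reasons, and stroma counts as 1 control whose own spread is left out. Because only ratios were deposited, a value near 0 can mean equal RNA on both sides or RNA too scarce to measure on either side.

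The tissues carried the markers their labels name. Luminal markers averaged 3.21 to 4.19 on terminal end bud arrays and 3.04 to 3.53 on duct arrays, with 9 of 10 higher than stroma in each structure and the estrogen receptor Esr1 as the one that was not. Basal and myoepithelial markers averaged 1.09 to 1.55 in terminal end buds and 1.84 to 2.55 in ducts. Of these, 5 of 9 were lower in terminal end buds than in ducts, against 10.4% of all probes. Adipocyte markers averaged -1.70 to -1.05 in terminal end buds and -0.53 to -0.37 in ducts. Endothelial markers averaged -1.44 to -0.99 and -0.51 to -0.16. Brown adipocyte markers averaged -2.70 to -2.02 and -2.14 to -0.89. Of 7 adipocyte markers, 7 were lower than stroma in terminal end buds and 2 in ducts. For 9 endothelial markers the counts were 9 and 6, and for 6 brown adipocyte markers 6 and 5, against 20.4% and 12.2% of all probes. Fibroblast markers averaged -0.048 to 0.78 and 0.11 to 1.06. Of these 10, 4 were higher and 1 lower than stroma in terminal end buds, against 23.2% and 20.4% of all probes. In ducts 6 were higher and 0 lower, against 16% and 12.2%. Duct arrays thus lay closer to stroma in their fat and vessel markers. Of 5 nerve markers, 0 were higher and 3 lower than stroma in terminal end buds, and 0 and 1 in ducts. Of 5 blood cell markers, 1 was higher and 1 lower in terminal end buds, and 1 and 0 in ducts. Of 7 skeletal muscle markers, 1 was higher and 0 lower in each structure. Of 6 skin markers, 2 were higher and 1 lower in each.

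The members as a whole had median ratios close to those of all probes, with fewer calls below stroma. In terminal end buds 31 of 121 member probes were higher than stroma and 17 were lower at an adjusted p under 0.05, which is 25.6% and 14% of the members against 23.2% and 20.4% of all probes, or 43.6% in either direction. In ducts 26 were higher and 8 lower, or 21.5% and 6.61%, against 16% and 12.2% of all probes, or 28.2% in either direction. The median ratio of the members was 0.027 in terminal end buds and 0.024 in ducts, and it was 0.015 for all probes in both. The share higher in terminal end buds lay near that of the whole array, and the share higher in ducts lay above it. The shares lower were smaller than those of the array in both structures. Of the members, 88 of 121 probes (72.7%) were within 0.5 of stroma in both structures, against 77.3% of all probes.

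The large ratios fell on few genes. Terminal end buds had 11 member probes (9.09%) called and at least 2-fold above stroma, against 3.74% of all probes, and 1 (0.826%) at least 2-fold below, against 3.48%. Ducts had 9 (7.44%) and 1 (0.826%), against 1.81% and 0.603% of all probes. The high probes of terminal end buds were those of Irx1, Irx2, Irx3, Irx4, Irx5, Msx2, Sox4, Sox9, Tbx2 and both probes of Foxp4. In ducts they were those of the same 5 Irx genes, Msx2, Sox4, Sox9 and Foxi1. Hoxa5 was the low gene in both. The map of ratios by array shows these rows apart from the paler rest.

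**Figure D1:**
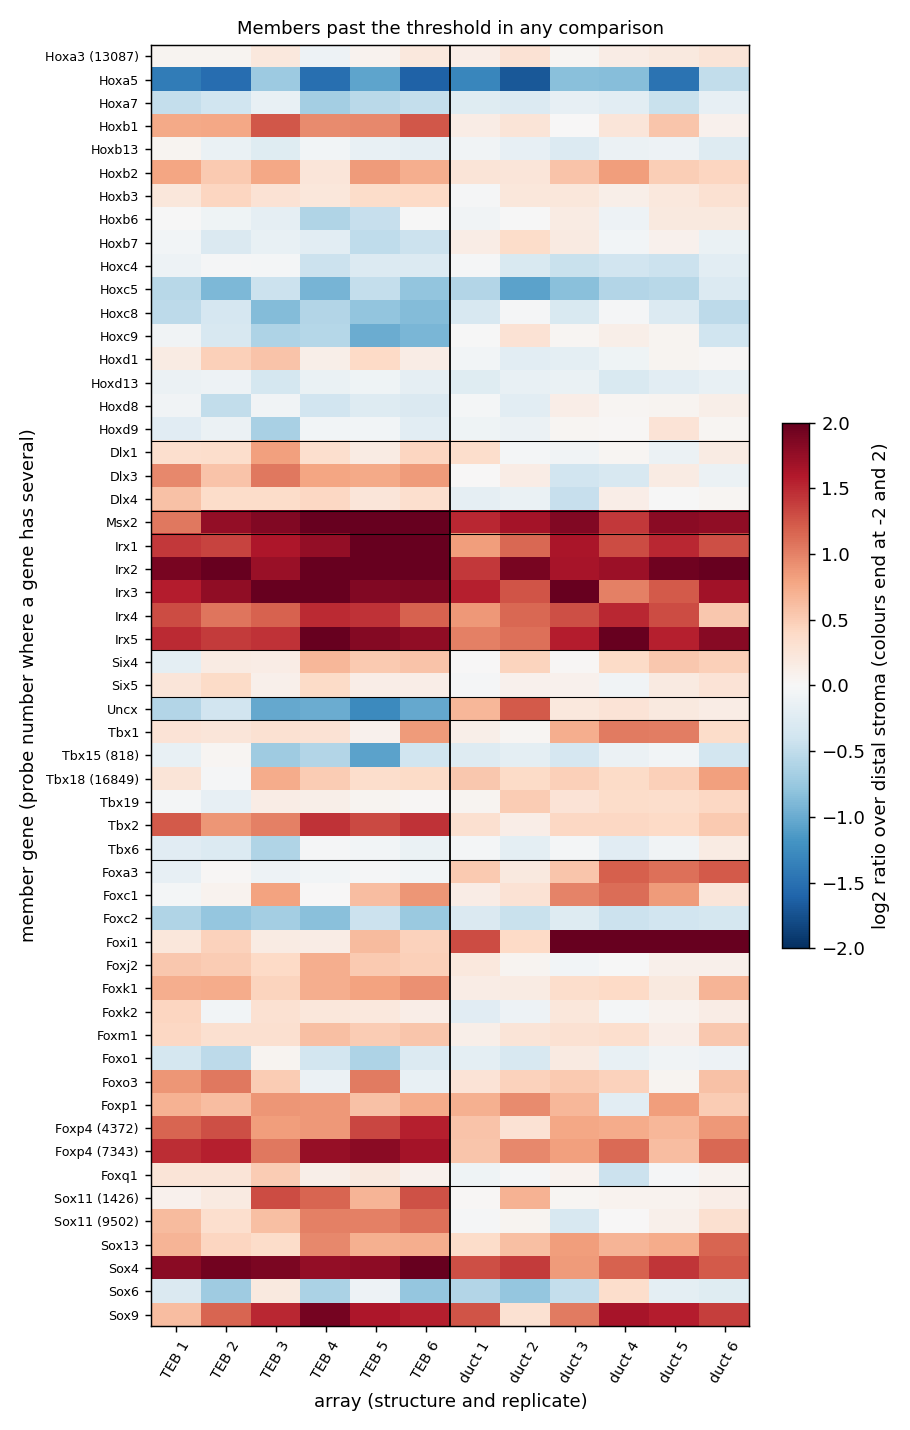
Log2 ratio over distal stroma (colour, ending at -2 and 2) of the 55 member probes past the threshold in any comparison, in rows by family, on the 6 terminal end bud and 6 duct arrays in columns. Irx1 to Irx5, Msx2, Sox4 and Sox9 are red on all 12 arrays, and Hoxa5 is blue on all 12.

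The Irx genes had the highest ratios of any family. Irx (Iroquois) proteins are homeodomain factors with an atypical loop in the domain, and their genes lie in a pair of clusters, Irx1, Irx2 and Irx4 on chromosome 13 and Irx3, Irx5 and Irx6 on chromosome 8. Of 6 members, 5 were higher than stroma in both structures and 0 were lower. Over the whole array, calls above stroma made up 23.2% of probes for terminal end buds and 16% for ducts. Calls below it made up 20.4% and 12.2%. The median ratio of the family was 1.75 in terminal end buds and 1.399 in ducts.

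Irx2 ranged from 1.72 to 2.69 on the terminal end bud arrays with a median of 2.08, and from 1.41 to 2.16 on the duct arrays with a median of 1.81. Its mean was 2.12 above stroma in terminal end buds (SE 0.11, 4.33-fold, adjusted p = 3.32e-09) and 1.798 in ducts (SE 0.11, 3.48-fold, adjusted p = 6.96e-08). All 12 arrays were above 1 and the structures overlapped.

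Irx1, its neighbour, ranged from 1.35 to 2.34 in terminal end buds with a median of 1.68, and from 0.84 to 1.64 in ducts with a median of 1.296. The means were 1.77 (adjusted p = 5.02e-08) and 1.29 (adjusted p = 5.26e-06). Irx4, known best for its part in the heart ventricle, ranged from 1.08 to 1.49 with a median of 1.24 and from 0.54 to 1.51 with a median of 1.22. Its means were 1.28 (adjusted p = 1.61e-07) and 1.11 (adjusted p = 3.11e-06), and duct replicate 6 was the low array at 0.54.

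In the cluster on chromosome 8, Irx3 ranged from 1.56 to 2.64 in terminal end buds with a median of 1.86 and from 1.01 to 2.37 in ducts with a median of 1.41. Its means were 2.04 (SE 0.17, adjusted p = 1.81e-07) and 1.52 (SE 0.17, adjusted p = 1.28e-05). Irx5 ranged from 1.40 to 2.43 with a median of 1.63 and from 1.003 to 2.003 with a median of 1.57, with means of 1.73 (adjusted p = 1.82e-07) and 1.51 (adjusted p = 3.26e-06). Irx6, the last gene of that cluster, lay at stroma on every array, from -0.052 to 0.18 in terminal end buds and from -0.016 to 0.13 in ducts. Its means were 0.069 (adjusted p = 0.27) and 0.074 (adjusted p = 0.278), so the gene next to Irx5 showed no measurable ratio.

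The 5 Irx genes were between 0.17 and 0.53 higher in terminal end buds than in ducts, and 0 of them passed the threshold. Irx1 differed by 0.49 (SE 0.18, adjusted p = 0.0764) and Irx3 by 0.53 (SE 0.24, adjusted p = 0.152). The call of Irx1 depended on the fit: its adjusted p was 0.0145 with the period of array numbers as a term, 0.0487 with array weights and 0.0412 when terminal end bud replicate 2 was left out. Irx2 had an adjusted p of 0.204. Irx3 had an adjusted p of 0.0323 without duct replicate 3, at a difference of 0.696.

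**Figure D2:**
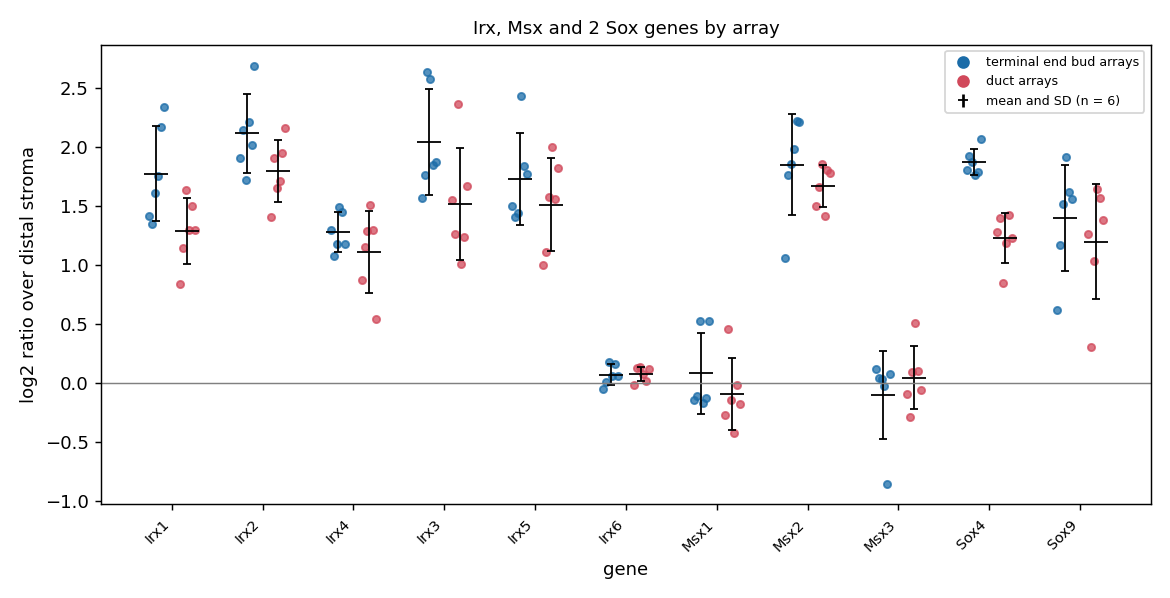
Log2 ratio over distal stroma (vertical axis) of the Irx and Msx genes, Sox4 and Sox9 on the 6 terminal end bud arrays (blue) and the 6 duct arrays (red), with the mean and SD of each group. Irx1 to Irx5 and Msx2 lie above 0.5 on every array, while Irx6 and the means of Msx1 and Msx3 lie near 0.

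The windows around the start sites of Irx2, Irx3 and Irx4 are shown because these genes were high in both structures, those of Msx2 and Uncx because they carry a homeodomain motif. They run from 250 bases before to 50 bases after the start, from RefSeq on build GRCm38.p6, 5′ to 3′ on the gene's strand. The Irx2 and Irx4 windows surround starts inside their genes, whose bounds begin at 72624430 and 73259589. No window was available for Irx1 and Irx5. Capitals mark TAATTA, a core that many homeodomains bind and that reads the same on both strands, GGGCGG (the GC box, or CCGCCC on the other strand) and CCAAT (or ATTGG). No matches overlapped in these windows.
Irx2, chr13:72628570-72628869 (+ strand): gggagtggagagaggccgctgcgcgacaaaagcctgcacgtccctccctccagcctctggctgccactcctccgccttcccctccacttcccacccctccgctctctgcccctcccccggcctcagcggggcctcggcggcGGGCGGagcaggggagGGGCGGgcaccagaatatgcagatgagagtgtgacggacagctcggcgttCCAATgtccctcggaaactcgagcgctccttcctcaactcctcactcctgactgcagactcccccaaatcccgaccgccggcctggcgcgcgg
Irx3, chr8:91801605-91801904 (- strand): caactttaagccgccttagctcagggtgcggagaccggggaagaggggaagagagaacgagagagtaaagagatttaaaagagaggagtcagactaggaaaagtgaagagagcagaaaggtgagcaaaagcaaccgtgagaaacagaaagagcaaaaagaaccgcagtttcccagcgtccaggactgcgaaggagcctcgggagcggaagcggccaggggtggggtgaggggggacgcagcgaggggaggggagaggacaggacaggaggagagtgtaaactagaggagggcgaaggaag
Irx4, chr13:73260247-73260546 (+ strand): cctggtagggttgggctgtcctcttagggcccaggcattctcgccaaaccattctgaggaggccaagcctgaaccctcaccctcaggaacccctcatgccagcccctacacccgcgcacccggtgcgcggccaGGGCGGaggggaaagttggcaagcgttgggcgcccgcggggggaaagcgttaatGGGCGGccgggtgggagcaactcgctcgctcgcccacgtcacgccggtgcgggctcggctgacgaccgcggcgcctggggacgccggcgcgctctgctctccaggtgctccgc
Msx2, chr13:53472731-53473030 (- strand): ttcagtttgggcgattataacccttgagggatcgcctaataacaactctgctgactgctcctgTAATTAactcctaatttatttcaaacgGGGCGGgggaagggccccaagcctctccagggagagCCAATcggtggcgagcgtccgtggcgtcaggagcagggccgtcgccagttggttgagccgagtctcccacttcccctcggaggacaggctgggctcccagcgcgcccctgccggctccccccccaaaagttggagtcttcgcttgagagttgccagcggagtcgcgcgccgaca
Uncx, chr5:139543648-139543947 (+ strand): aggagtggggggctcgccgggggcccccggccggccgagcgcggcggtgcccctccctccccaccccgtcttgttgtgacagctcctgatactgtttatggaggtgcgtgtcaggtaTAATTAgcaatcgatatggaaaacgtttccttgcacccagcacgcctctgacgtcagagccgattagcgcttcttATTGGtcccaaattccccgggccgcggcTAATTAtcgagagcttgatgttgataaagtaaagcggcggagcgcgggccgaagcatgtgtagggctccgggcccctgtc

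The Irx2 window held 2 GC boxes and 1 CCAAT, the Irx4 window 2 GC boxes, and the Irx3 window 0 of the 3 motifs. Msx2 had 1 of each motif, and Uncx had 1 CCAAT and 2 TAATTA. The last of these was in 5.29% of the 32851 RefSeq windows of this length, GGGCGG in 35.7% and CCAAT in 37.4%. Of the member genes 75 of 112 had a window in the table, with 93 windows in all. TAATTA was in 8.6% of these, in Foxn1, Foxp1, Hoxd11, Msx2, Tbx19, Tbx6 and Uncx, while GGGCGG was in 54.8% and CCAAT in 51.6%. The windows of Irx2, Irx4, Msx2 and Uncx held 25, 31, 22 and 26 CpG, and that of Irx3 held 14, against a median of 7 over all windows. A match describes letters only.

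Of the Msx genes, Msx2 stood as high as the Irx genes and its relatives did not. Msx2 is a homeodomain repressor that responds to BMP signals in ectodermal organs, and it is needed in the mammary bud. Its ratio ranged from 1.06 to 2.22 in terminal end buds with a median of 1.92 and from 1.42 to 1.85 in ducts with a median of 1.72. Terminal end bud replicate 1 was the low array. The means were 1.85 (SE 0.12, 3.61-fold, adjusted p = 2.18e-08) and 1.67 (SE 0.12, 3.18-fold, adjusted p = 2.95e-07), and they did not pass the test between structures (0.18, SE 0.17, adjusted p = 0.538). Msx1 was at 0.081 and -0.099, and Msx3, a gene of the neural tube, at -0.105 and 0.042, with adjusted p between 0.518 and 0.837.

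Dlx1, Dlx3 and Dlx4 were higher than stroma in terminal end buds. Dlx proteins are homeodomain factors of skin appendages, placenta, jaw and forebrain, and their genes lie in pairs. Of 6 members, 3 were higher than stroma in terminal end buds and 0 in ducts, and the same 3 were higher in terminal end buds than in ducts. Of all probes, 23.2% were higher than stroma in terminal end buds and 16% in ducts. Between the structures, 8.32% of all probes were higher in terminal end buds.

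Dlx3, which acts in skin, hair and placenta, ranged from 0.57 to 1.05 on terminal end bud arrays with a median of 0.82, and from -0.38 to 0.16 on duct arrays with a median of -0.056. The means were 0.83 above stroma (SE 0.08, adjusted p = 1.01e-06) and -0.083 (adjusted p = 0.488). The arrays did not overlap, and the difference was 0.91 (SE 0.11, 1.88-fold, adjusted p = 9.55e-05). On the arrays up to number 193 alone, 2 in each structure, it was 0.696 (adjusted p = 0.0705).

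Dlx4, next to Dlx3 on chromosome 11, ranged from 0.24 to 0.59 with a median of 0.37 in terminal end buds and from -0.47 to 0.14 with a median of -0.07 in ducts. Its difference was 0.49 (SE 0.10, adjusted p = 0.00356) with no overlap. Dlx1 differed by 0.35 (adjusted p = 0.0425), with duct replicate 1 at 0.35 inside the terminal end bud range of 0.17 to 0.82. That call ended under quantile normalization (0.28, adjusted p = 0.169), a common spread of the arrays (0.29, adjusted p = 0.119), array weights (adjusted p = 0.0712) and without any of 10 of the 12 arrays. Dlx2, Dlx5 and Dlx6 were between 0.019 and 0.076 in terminal end buds and between -0.102 and -0.026 in ducts.

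Of the Hox genes past the threshold, more were below stroma than above it. Hox proteins give cells their position along the body, and their genes stand in 4 clusters, a to d, in which low paralogue numbers lie at one end. Of 35 probes of 34 genes, 4 were higher and 11 lower than stroma in terminal end buds (11.4% and 31.4%, against 23.2% and 20.4% of all probes). In ducts 3 were higher and 7 lower (8.57% and 20%, against 16% and 12.2%). The median ratio was -0.078 in terminal end buds and 0.006 in ducts.

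Hoxa5, a gene of lung, foregut and fat mesenchyme, had the lowest ratio of the 121 probes in both structures. It ranged from -1.61 to -0.72 in terminal end buds with a median of -1.46, and from -1.70 to -0.49 in ducts with a median of -1.08. All 12 arrays were below stroma and the groups overlapped. The means were -1.305 (SE 0.15, adjusted p = 4.17e-06) and -1.11 (SE 0.15, adjusted p = 6.21e-05), with a difference of -0.196 (adjusted p = 0.589).

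Others of the same kind were smaller. Hoxc5 was at -0.68 in terminal end buds (adjusted p = 3.33e-05) and -0.65 in ducts (adjusted p = 0.000147), below stroma on all 12 arrays. Hoxa7 was at -0.45 (adjusted p = 4.34e-05) and -0.25 (adjusted p = 0.00948), and Hoxc8 at -0.66 (adjusted p = 9.76e-06) and -0.25 (adjusted p = 0.0337). Hoxc4 at -0.19 and -0.30 and Hoxd13 at -0.16 and -0.196 also fell in both. Adipocyte and endothelial markers averaged below stroma on the same arrays, at the values given with the markers. In ducts, 2 of 7 adipocyte and 6 of 9 endothelial markers were called lower. The part of these markers in the Hox ratios was not tested. In dissected tissue, fewer cells of a type and less RNA per cell cannot be told apart.

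Hoxc9 was lower in terminal end buds than in ducts. It is a posterior Hox gene that also marks white fat of the trunk. It ranged from -0.999 to -0.066 with a median of -0.595 in terminal end buds and from -0.40 to 0.296 with a median of 0.05 in ducts. Duct replicate 6, at -0.40, lay inside the terminal end bud range. The mean in terminal end buds was -0.58 (SE 0.11, adjusted p = 0.000568), and the difference from ducts was -0.596 (SE 0.16, adjusted p = 0.0152). The difference was -0.47 under quantile normalization (adjusted p = 0.061) and -0.33 on the arrays up to 193 alone (adjusted p = 0.337), where the terminal end bud ratio was -0.19 (adjusted p = 0.305).

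Smaller falls in terminal end buds were called for Hoxb7 at -0.27, Hoxd8 at -0.26, Hoxb6 at -0.22 and Hoxd9 at -0.22, with adjusted p between 0.00416 and 0.0361. Hoxb13 fell in ducts, at -0.165 (adjusted p = 0.0265). Hoxb7, Hoxc8 and Hoxd8 were also lower in terminal end buds than in ducts, by -0.37 (adjusted p = 0.0215), -0.415 (adjusted p = 0.0201) and -0.278 (adjusted p = 0.0497). That of Hoxc8 was -0.207 under quantile normalization (adjusted p = 0.335), and that of Hoxd8 had an adjusted p of 0.0524 with arrays centred on their medians. All 3 calls were lost when terminal end bud replicate 6 was left out, and that of Hoxd8 without any of 9 arrays.

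The genes at the low-number end of cluster b went the other way. Hoxb1, known from the hindbrain, ranged from 0.76 to 1.25 on terminal end bud arrays with a median of 0.95, and from 0.002 to 0.55 on duct arrays with a median of 0.199. The means were 0.99 (SE 0.08, 1.99-fold, adjusted p = 1.92e-07) and 0.215 (SE 0.08, adjusted p = 0.0633), and the arrays did not overlap. The difference was 0.775 (SE 0.12, adjusted p = 0.000347), and 0.56 on the arrays up to 193 alone (adjusted p = 0.0555). The duct value passed the threshold under quantile normalization (0.23, adjusted p = 0.0349), a common spread (0.24, adjusted p = 0.0297), array weights (adjusted p = 0.0392) and without duct replicate 3 (0.257, adjusted p = 0.0481).

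Hoxb2 was at 0.65 in terminal end buds (adjusted p = 2.42e-05) and 0.47 in ducts (adjusted p = 0.000971), above stroma on all 12 arrays, and Hoxb3 at 0.32 (adjusted p = 0.00015) and 0.176 (adjusted p = 0.023). From Hoxb4 to Hoxb9 and Hoxb13 no member of the cluster rose. Hoxd1, the first of cluster d, ranged from 0.11 to 0.57 in terminal end buds and from -0.22 to 0.057 in ducts without overlap. Its difference was 0.39 (SE 0.10, adjusted p = 0.00933). In clusters a and c, by contrast, no gene rose in terminal end buds.

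The duct call of Hoxa3 rested on its probe 13087 (0.179, adjusted p = 0.0221), while its probe 11634 was at -0.41 (adjusted p = 0.0902), with duct replicate 4 at -1.71. The mean of both probes was -0.117 (adjusted p = 0.388). The other 17 Hox genes, of which Hoxa10 at -0.34 in terminal end buds was the farthest from 0 in that comparison, passed the threshold nowhere.

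**Figure D3:**
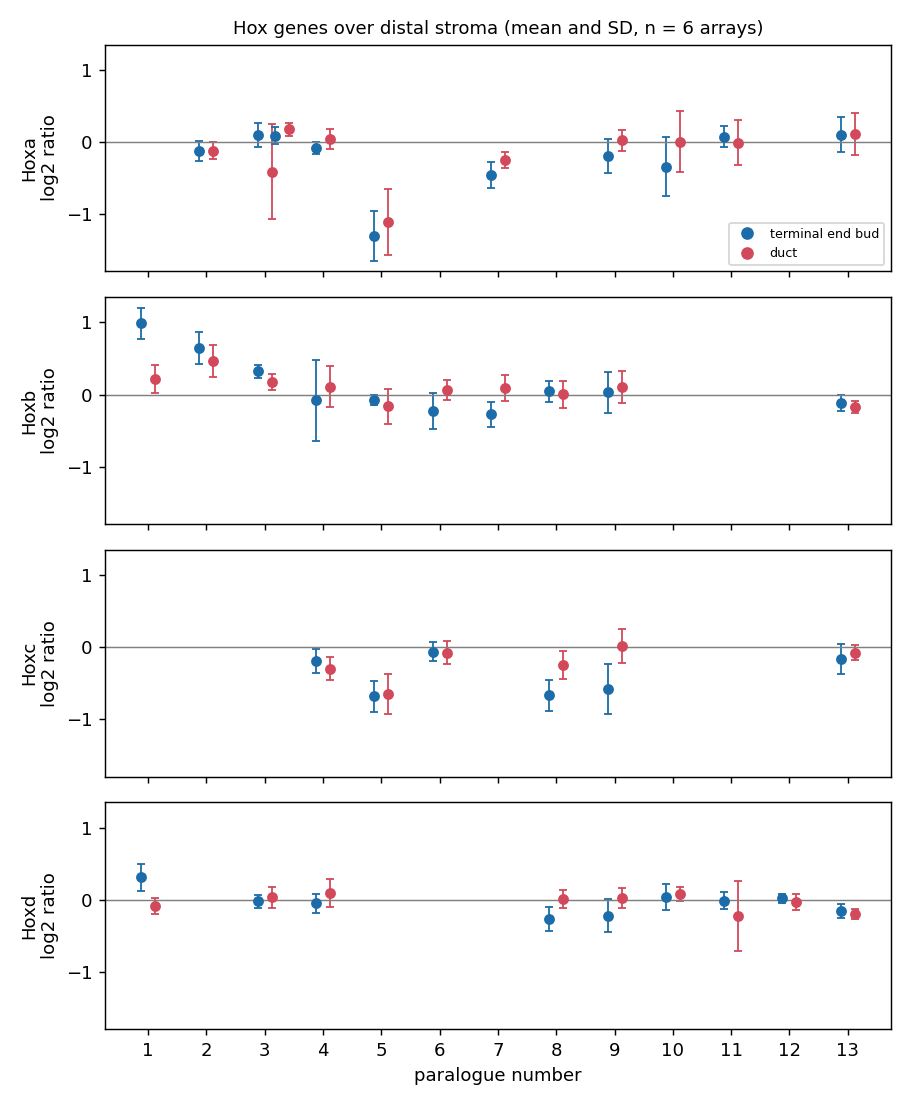
Mean log2 ratio over distal stroma with SD (6 arrays) of the Hox genes, by paralogue number (horizontal axis) in the 4 clusters, for terminal end buds (blue) and ducts (red). Hoxa5 lies lowest at -1.305 and -1.11, and Hoxb1, Hoxb2 and Hoxb3 descend from 0.99 to 0.32 in terminal end buds.

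No Lhx gene passed the threshold. Lhx proteins join a homeodomain to LIM domains and act mainly in neurons and the pituitary. All 9 probes of 8 genes were uncalled in the 3 comparisons, with 0 at an unadjusted p under 0.05 in terminal end buds and 1 in ducts. Of all probes, 43.6% were called in either direction in terminal end buds, 28.2% in ducts and 18.7% between structures. Lhx2, a factor of hair follicle stem cells and forebrain, had the widest value at -0.86 in terminal end buds (adjusted p = 0.139). Its terminal end bud replicate 3 was at -4.52 and the median was -0.206.

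Six4 and its relatives, homeodomain factors of muscle, eye and placodes, showed small ratios. Six4 was at 0.31 in terminal end buds (adjusted p = 0.0275) and 0.31 in ducts (adjusted p = 0.0399). The first had an adjusted p of 0.0617 under quantile normalization and the second of 0.0546 with arrays centred on their medians. Six5 was at 0.229 in terminal end buds (adjusted p = 0.0052) and 0.09 in ducts (adjusted p = 0.286). Six3 and Six6, genes of the eye and forebrain, were uncalled, and Six3 had terminal end bud replicate 3 at -2.09 while the median was 0.03.

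Uncx was called in opposite directions. It encodes a paired-type homeodomain protein of the somites, and its platform assignment rests on 1 probe, as for most members. Its ratio ranged from -1.28 to -0.38 on terminal end bud arrays with a median of -1.01, and from 0.14 to 1.23 on duct arrays with a median of 0.24. Every terminal end bud array was below stroma and every duct array above. The means were -0.88 (SE 0.14, adjusted p = 9.91e-05) and 0.45 (SE 0.14, adjusted p = 0.0238), and the difference was -1.33 (SE 0.19, 2.52-fold, adjusted p = 0.000313).

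The rise of Uncx in ducts rested on few arrays. Duct replicates 1 and 2 were at 0.66 and 1.23, and the other 4 were between 0.14 and 0.27. Without replicate 1 it was 0.41 (adjusted p = 0.0706), without replicate 2 it was 0.297 (adjusted p = 0.0787), and on the arrays from 196 on alone 0.206 (adjusted p = 0.0524). From the 4 arrays up to 193 it was 0.94 (adjusted p = 0.0104), while the terminal end bud ratio was -0.485 (adjusted p = 0.0564).

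Among the T-box genes, Tbx2 was the one with a large ratio. Tbx2 is a repressor that acts in heart, limb and the mammary bud and restrains cell cycle inhibitors. It ranged from 0.88 to 1.45 on terminal end bud arrays with a median of 1.27, and from 0.13 to 0.53 on duct arrays with a median of 0.40. The means were 1.22 (SE 0.08, 2.33-fold, adjusted p = 1.7e-08) and 0.37 (SE 0.08, 1.29-fold, adjusted p = 0.00239). The arrays did not overlap, and the difference was 0.85 (SE 0.11, adjusted p = 0.000121). The duct ratio was 0.229 on the arrays up to 193 alone (adjusted p = 0.285).

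Of the 12 Tbx probes, 2 were higher and 2 lower than stroma in terminal end buds, and 4 higher and 0 lower in ducts. In terminal end buds that is 16.7% each way against 23.2% and 20.4% of all probes, and in ducts 33.3% and 0% against 16% and 12.2%. Tbx1, a gene of the pharyngeal arches, was at 0.55 in ducts (adjusted p = 0.00612) and 0.34 in terminal end buds (adjusted p = 0.051). Its duct replicates 3, 4 and 5 were at 0.723, 1.04 and 1.028, and the others between 0.04 and 0.369. Tbx18, a gene of mesenchymal lineages, was at 0.37 (adjusted p = 0.00241) and 0.51 (adjusted p = 0.000395) with its probe 16849, and at 0.22 (adjusted p = 0.0952) and 0.28 (adjusted p = 0.0502) with its probe 8128. Tbx19, a pituitary factor, was at 0.33 in ducts (adjusted p = 0.00104) and 0.023 in terminal end buds, a difference of -0.306 (adjusted p = 0.0231) that was lost without terminal end bud replicate 2 (-0.268, adjusted p = 0.0507).

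Tbx15, a factor of skeleton and fat, fell in terminal end buds by its probe 818 (-0.48, adjusted p = 0.00232) but was at 0.126 by its probe 10172 (adjusted p = 0.255), so its probes disagree. Tbx6 was at -0.216 in terminal end buds (adjusted p = 0.0268). Tbx5 and Tbx20, known from the heart, and Tbx21, a factor of T helper cells, were uncalled.

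The Fox family held Foxi1, the member farthest above its terminal end bud level in ducts, beside Foxp4, which was high in both structures. Of 31 probes of 30 genes, 9 were higher and 2 lower than stroma in terminal end buds, and 8 were higher and 1 lower in ducts. Those shares, 29% and 25.8% higher, compare with 23.2% and 16% of all probes. The median ratio was 0.075 and 0.032.

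Foxi1 is the factor that specifies ion-transporting cells of kidney, inner ear and airway. On duct arrays it ranged from 0.40 to 2.65 with a median of 2.02, and on terminal end bud arrays from 0.149 to 0.64 with a median of 0.345. Duct replicate 2, at 0.40, lay inside the terminal end bud range, replicate 1 was at 1.298 and the other 4 were between 1.98 and 2.65. The means were 1.79 in ducts (SE 0.21, 3.45-fold, adjusted p = 2.31e-05) and 0.35 in terminal end buds (SE 0.21, adjusted p = 0.203), and the difference was -1.44 (SE 0.30, 2.71-fold, adjusted p = 0.00349).

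Those values moved with the array numbers. The duct ratio of Foxi1 was, from the arrays up to 193 alone, 0.85 (adjusted p = 0.0433) and the difference -0.50 (adjusted p = 0.406). The terminal end bud ratio passed with the 6 terminal end bud arrays fitted alone (adjusted p = 0.00726), on the arrays from 196 on alone (adjusted p = 0.0452) and without duct replicate 2 (adjusted p = 0.0473), at 0.35 in each.

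Foxa3, a forkhead factor of liver and gut, was also higher in ducts than in terminal end buds. It ranged from 0.192 to 1.23 on duct arrays with a median of 0.83 and from -0.163 to 0.024 on terminal end bud arrays with a median of -0.052, with no overlap. The means were 0.80 (SE 0.12, adjusted p = 0.000125) and -0.061 (adjusted p = 0.707), and the difference was -0.86 (SE 0.16, adjusted p = 0.00188). On the arrays up to 193 alone the duct ratio was 0.356 (adjusted p = 0.104) and the difference -0.43 (adjusted p = 0.204). Foxc1, a mesenchymal and vascular factor, was at 0.61 in ducts (adjusted p = 0.00864) and 0.39 in terminal end buds (adjusted p = 0.054), a difference of -0.217 that did not pass (adjusted p = 0.567). Its duct replicates 3, 4 and 5 were at 0.997, 1.122 and 0.844, and the others between 0.15 and 0.283.

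Foxp4, a repressor best known from lung and gut, was high in both structures by both of its probes. Probe 7343 ranged from 1.06 to 1.798 in terminal end buds with a median of 1.61 and from 0.55 to 1.14 in ducts with a median of 0.89. Its means were 1.55 (SE 0.10, 2.92-fold, adjusted p = 1.76e-08) and 0.87 (SE 0.10, 1.83-fold, adjusted p = 1.73e-05), and probe 4372 gave 1.175 (adjusted p = 1.48e-07) and 0.65 (adjusted p = 0.000128). The ranges met in both probes. The differences between structures were 0.68 (adjusted p = 0.00341) and 0.52 (adjusted p = 0.0121), and both ended under quantile normalization, at 0.307 (adjusted p = 0.147) and 0.211 (adjusted p = 0.353). A common spread ended that of probe 4372 (0.37, adjusted p = 0.121), and the arrays from 196 on alone ended both (adjusted p = 0.0508 and 0.161). On the arrays up to 193 alone the duct ratio of probe 4372 was 0.43 (adjusted p = 0.0493).

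Other Fox genes of both structures were smaller. Foxp1, which acts in hormone-responsive and immune cells, was at 0.73 (adjusted p = 8.74e-05) and 0.58 (adjusted p = 0.00148). Foxk1, which restrains autophagy genes, was at 0.73 (adjusted p = 1.66e-06) and 0.32 (adjusted p = 0.00467), and its difference of 0.41 (adjusted p = 0.0136) was 0.24 under quantile normalization (adjusted p = 0.197). Foxm1, which drives genes of mitosis, was at 0.45 (adjusted p = 3.16e-05) and 0.28 (adjusted p = 0.00375), a difference of 0.17 that did not pass (adjusted p = 0.221).

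Some Fox genes were called against stroma in terminal end buds but not in ducts. Foxj2 ranged from 0.397 to 0.72 in terminal end buds and from -0.06 to 0.204 in ducts with no overlap, a difference of 0.46 (SE 0.07, adjusted p = 0.000603). Foxq1 differed by 0.306 (adjusted p = 0.0474) with no overlap, a call lost under 4 of the other fits and without any of 9 arrays. Foxo3 was at 0.54 in terminal end buds (adjusted p = 0.00902), with replicates 4 and 6 at -0.122 and -0.142. In ducts it was at 0.396 (adjusted p = 0.0631), with every array above stroma, from 0.061 to 0.592. Foxk2 was at 0.206 in terminal end buds (adjusted p = 0.0259) and 0.012 in ducts (adjusted p = 0.922). Neither gene had a call between the structures.

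The 2 Fox genes below stroma were Foxc2 and Foxo1. Foxc2, a regulator of fat cell metabolism and of lymphatic vessels, ranged from -0.84 to -0.435 in terminal end buds and from -0.44 to -0.264 in ducts. Its means were -0.68 (adjusted p = 2.12e-07) and -0.36 (adjusted p = 0.00025), and the difference of -0.318 (adjusted p = 0.0112) was -0.101 under quantile normalization (adjusted p = 0.429). Foxo1, which insulin signalling keeps out of the nucleus, was at -0.346 (adjusted p = 0.00249) and -0.11 (adjusted p = 0.342). Fat and vessel markers averaged below stroma on the same arrays, lower in terminal end buds, and their part was not tested. The remaining 17 Fox genes, among them Foxp3 of regulatory T cells, Foxj1 of ciliated cells and Foxn1 of thymus and skin, were uncalled, with terminal end bud ratios of -0.31 to 0.132 and duct ratios of -0.283 to 0.142.

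Sox4 and Sox9 had the highest ratios of the Sox genes. Sox4 and Sox11 are close relatives that act in progenitor cells and in developing epithelium and neurons. Sox4 ranged from 1.76 to 2.07 on terminal end bud arrays with a median of 1.84 and from 0.845 to 1.42 on duct arrays with a median of 1.25. The means were 1.87 (SE 0.07, 3.66-fold, adjusted p = 2.3e-10) and 1.23 (SE 0.07, 2.34-fold, adjusted p = 3.1e-08), with no overlap. The difference was 0.645 (SE 0.10, adjusted p = 0.000482), but 0.26 under quantile normalization (adjusted p = 0.162), 0.337 with a common spread of the arrays (adjusted p = 0.183) and 0.53 on the arrays up to 193 alone (adjusted p = 0.0748).

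Sox9, a factor of cartilage and of luminal progenitor cells, ranged from 0.62 to 1.92 in terminal end buds with a median of 1.535 and from 0.307 to 1.64 in ducts with a median of 1.32. The low arrays were terminal end bud replicate 1 and duct replicate 2. The means were 1.398 (SE 0.17, adjusted p = 8.25e-06) and 1.198 (SE 0.17, adjusted p = 0.000105), and the difference of 0.20 did not pass (adjusted p = 0.636). With the arrays up to 193 alone they were 0.89 (adjusted p = 0.0332) and 0.78 (adjusted p = 0.0847).

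Sox11 was read by 3 probes that did not match. Probe 9502 ranged from 0.34 to 1.105 in terminal end buds with a median of 0.82 and from -0.318 to 0.32 in ducts with a median of 0.034, a difference of 0.76 (SE 0.14, adjusted p = 0.00152). Probe 1426 was at 0.78 in terminal end buds (adjusted p = 0.00074), and its difference of 0.61 had an adjusted p of 0.0671. That difference passed with array weights (adjusted p = 0.0473) and on the arrays from 196 on alone (1.03, adjusted p = 0.00163). It also passed when terminal end bud replicate 1 or 2 or duct replicate 2 was left out. Probe 12268 was at 0.12 (adjusted p = 0.231) and 0.063. The mean of the 3 probes differed by 0.476 between structures (adjusted p = 0.0128). On the arrays up to 193 alone the terminal end bud ratio was 0.485 by probe 9502 (adjusted p = 0.0167) and 0.136 by probe 1426 (adjusted p = 0.61), and the difference by probe 9502 was 0.467 (adjusted p = 0.137).

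Sox13 was at 0.64 (adjusted p = 4.23e-05) and 0.73 (adjusted p = 4.3e-05), above stroma on all 12 arrays. Sox6, of the same subgroup, was at -0.386 in terminal end buds (adjusted p = 0.0384), with an adjusted p of 0.101 under quantile normalization and 0.0593 with a common spread. Sox2, Sox5, Sox7, Sox14, Sox15 and Sox21 were uncalled in all 3 comparisons.

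Between the structures, 13 member probes were higher in terminal end buds and 9 lower, 10.7% and 7.44% of the members against 8.32% and 10.4% of all probes, or 18.7% in either direction. Those at least 0.5 apart were 7 and 4, or 5.79% and 3.31% of the members against 4.48% and 6.28%. The arrays of the structures did not overlap for 9 member probes with terminal end buds above and for 2 with terminal end buds below, while 4.42% and 5.79% of all probes did so. The higher members were Hoxb1, Hoxd1, Dlx1, Dlx3, Dlx4, Tbx2, Foxj2, Foxk1, both probes of Foxp4, Foxq1, Sox4 and Sox11. The lower members were Hoxb7, Hoxc8, Hoxc9, Hoxd8, Uncx, Tbx19, Foxa3, Foxc2 and Foxi1. Both structures were measured against the same kind of stroma, so their ratios share it.

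**Figure D4:**
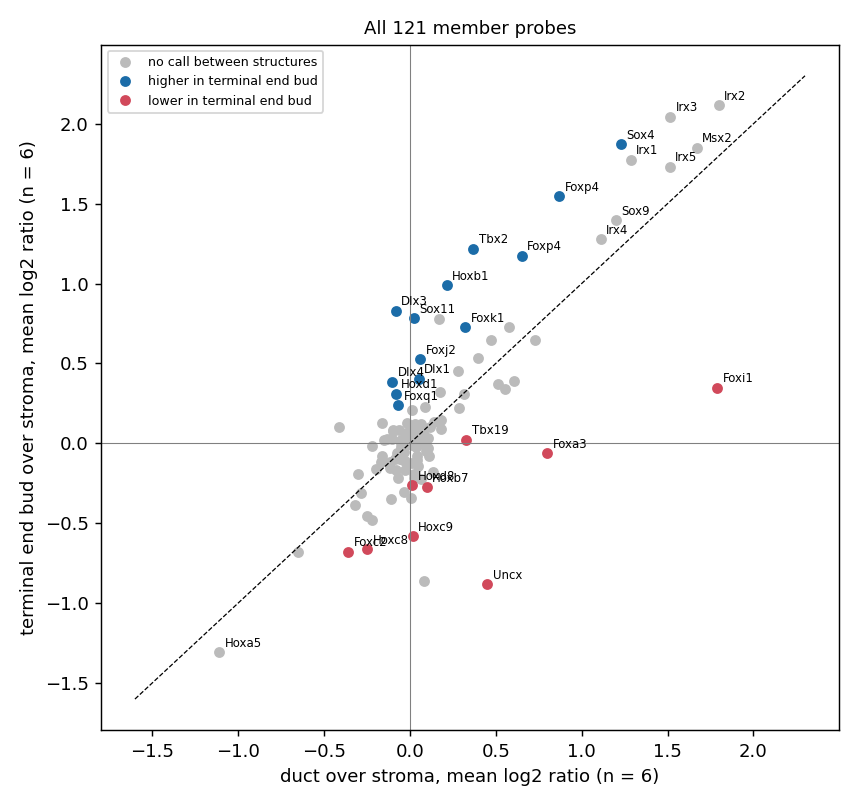
Mean log2 ratio over distal stroma of each of the 121 member probes in ducts (horizontal axis) and terminal end buds (vertical axis), 6 arrays each, with the diagonal of equal ratios. Blue points passed the threshold as higher in terminal end buds and red points as lower, with Dlx3, Tbx2 and Hoxb1 above the diagonal and Foxi1, Uncx and Foxa3 below it.

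**Figure D5:**
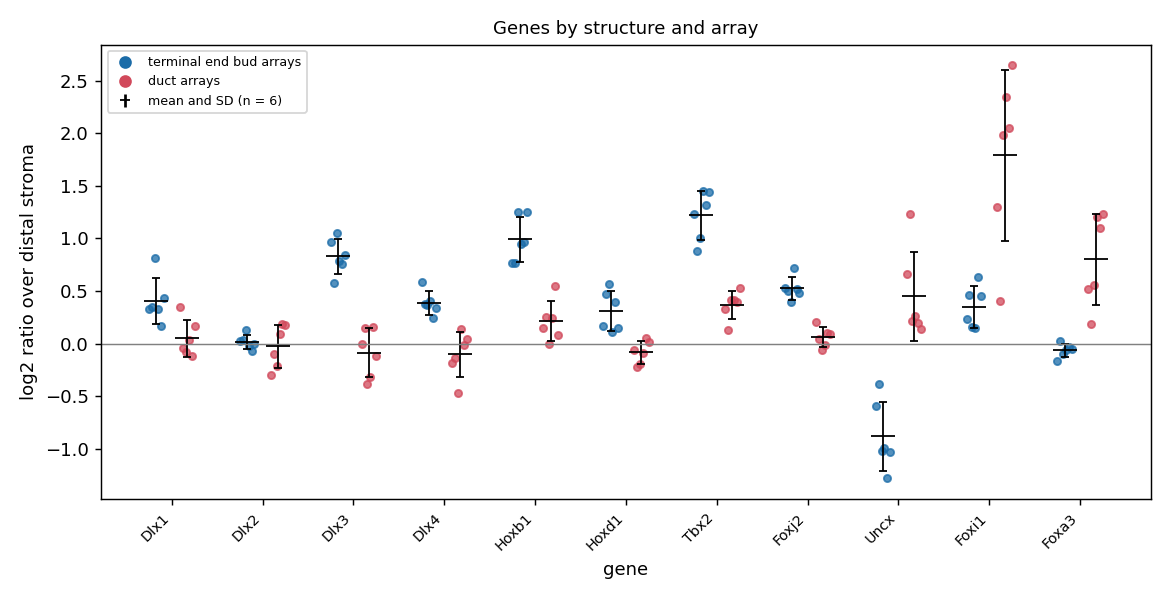
Log2 ratio over distal stroma (vertical axis) of 11 genes on the 6 terminal end bud arrays (blue) and 6 duct arrays (red), with the mean and SD of each group. Dlx3, Dlx4, Hoxb1, Hoxd1, Tbx2 and Foxj2 are separate with terminal end buds above, Uncx and Foxa3 with ducts above, while 1 duct array of Foxi1 lies among the terminal end bud arrays.

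Genes that work with these factors were counted from 8 lists, to be read against the 23.2% of all probes higher and 20.4% lower than stroma in terminal end buds and the 16% and 12.2% in ducts. Several lists are small or lie near those shares, and nothing particular is drawn from their counts. Of 8 measured TALE cofactors, which bind DNA together with Hox proteins or in their place, 4 rose and 0 fell in terminal end buds and 3 rose and 0 fell in ducts. They were led by Tgif1, a repressor of TGF-beta responses, at 1.72 and 1.08 (adjusted p = 2.02e-10 and 4.02e-08), followed by Tgif2 at 0.71 and 0.45 and Meis3 at 0.44 and 0.398. The fourth to rise in terminal end buds was Pknox1 at 0.234 (adjusted p = 0.0446). The others, Pbx2 at 0.067, Pbx3 at 0.175, Meis1 at 0.164 and Meis2 at -0.097 there, did not pass.

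Of 6 partners of Six4 and its relatives, 1 rose and 1 fell in each structure. Eya2, a coactivator and phosphatase, was at 1.52 (adjusted p = 1.67e-08) and 1.23 (adjusted p = 6.02e-07), and Eya1 at -0.307 and -0.202. Of 9 LIM homeodomain partners, 5 rose and 2 fell in terminal end buds and 3 rose and 0 fell in ducts. Lmo4, a LIM-only protein of breast epithelium, was at 1.06 and 0.53, its binding partner Ldb1 at 0.79 and 0.60, and Lmo2, of blood and vessels, at -0.81 and -0.227. The difference of Lmo4, 0.53 (adjusted p = 0.00244), was 0.249 under quantile normalization (adjusted p = 0.185). Of 5 Groucho corepressors, 3 rose in terminal end buds and 2 in ducts, with Tle3 at 0.86 and 0.385.

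Of 15 genes of mammary placode signalling, 5 rose and 2 fell in terminal end buds and 3 rose and 1 fell in ducts. Gata3 was at 3.75 and 3.37, the FGF receptor Fgfr2 at 2.47 and 2.36, and the ligand Wnt6 at 2.11 and 1.02 with a difference of 1.095 (adjusted p = 0.000203). Of 7 partners of Sox and Tcf factors, 2 rose and 1 fell in terminal end buds and 2 rose and 0 fell in ducts, and Ctnnb1 was at 0.61 and 0.495. The gene that fell, Lef1, is also in the placode list. Tcf7l2 was at 0.42 in terminal end buds and -0.004 in ducts, a difference of 0.42 (adjusted p = 0.00604). Pou5f1, a pluripotency factor that binds DNA with Sox2, went the other way, at 0.059 in terminal end buds and 0.402 in ducts (adjusted p = 0.00124), a difference of -0.343 (adjusted p = 0.04).

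Of 15 targets of Foxm1, 11 rose and 2 fell in terminal end buds and 2 rose and 2 fell in ducts. Between the structures, 8 were higher in terminal end buds and 0 lower, against 8.32% and 10.4% of all probes. Cenpa was at 2.19 and 0.20, Birc5 at 2.01 and 0.48 and Cks1b at 1.58 and 0.53. The list averaged 0.607 to 1.24 on terminal end bud arrays and -0.005 to 0.36 on duct arrays, while Foxm1 itself did not differ between the structures by the test given above. Of 17 regulators and targets of FoxO proteins, 5 rose and 11 fell in terminal end buds and 5 rose and 5 fell in ducts. Between the structures, 8 were lower in terminal end buds and 0 higher, against 10.4% and 8.32% of all probes. Catalase (Cat) was at -1.904 and -0.698, Sod2 at -1.89 and -0.93 and Klf15 at -1.18 and -0.57. Fat and vessel markers averaged lower than stroma on the same arrays, and their part was not tested. The differences of Sod2 and Klf15 did not pass under quantile normalization (adjusted p = 0.197 and 0.387).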

How the data were processed

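The authors deposited a table of log2 ratios of Cy5 (epithelium) over Cy3 (stroma) for 17589 probes on 12 arrays, used as deposited. Sign follows the dyes named per the labels, and the base was taken from the size of the values. No source used here gives the scanner, background correction or normalization. Array medians were 0.01 to 0.023. Of the member probes 0 had a missing value, while 129 probes in all did.

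Genes were named from the platform annotation, in which 14136 probes had 1 symbol, 13 several and 3440 were unnamed here. All 112 member genes matched a RefSeq table of GRCm38.p6 by gene number with 0 symbols changed, and for 71 of the 121 member probes the annotated accession is a current RefSeq transcript of the gene. No position was used other than gene order, the promoter windows and the bounds of Irx2 and Irx4.

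One limma 3.58.1 fit (R 4.3.3) of 2 group means over all probes gave each mean against 0 and their difference, with lmFit and eBayes, two-sided, Benjamini-Hochberg adjusted over 17589 probes at 0.05. The fit was tested on simulated data. Counts are over probes, and a listed partner or marker gene was read from its probe with most values, the first in the table where tied. Members, partner lists, marker lists and alternatives were chosen with earlier results of these data known. Genes named with every range were members called at 1 or more against stroma or 0.5 or more between structures, smaller calls are named with their ratio, and partner lists gave the up to 3 called genes with the largest change. The Pbx and Meis genes that did not pass, Pknox1, Lef1 and Esr1 were named after their values were seen. Replicate numbers follow the order of the records and pair nothing. Alternatives were centring, quantile normalization, a common median absolute deviation, another variance model, array weights, neighbouring array numbers as a block, array numbers up to 193 or from 196 on as a term, complete probes, a minimum size, gene means, each group alone and each array left out. Fits on the arrays up to 193 and from 196 on alone were added after seeing the data.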

Additional observations from a re-analysis of the deposited data

Results flagged for a closer look

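Each member probe was looked at in each structure for an array standing far from the other 5, which chance alone gives in about 1 of 20 groups. Of 242 groups, 35 had such an array. Terminal end bud replicate 3 was the array apart in 8 of them, with Lhx2 at -4.52, Six3 at -2.09, Lhx9 (probe 12420) at -1.307, Hoxb4 at -1.195, Foxn3 at -0.796, Hoxd9 at -0.651, Tbx21 at 0.586 and Sox21 at 0.443. The other terminal end bud values were Hoxb9 at -0.54 and Foxl1 at 0.444 in replicate 4, Foxf1 at 0.526 in replicate 2, Msx3 at -0.855 in replicate 5, and Hoxc6 at -0.308 and Tbx1 at 0.858 in replicate 6.

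In ducts, replicate 4 was apart for Hoxa3 (probe 11634) at -1.71, Hoxa11 at -0.629, Tbx18 (probe 8128) at 0.815, Foxa2 at 0.207, Foxf2 at 0.485 and Foxq1 at -0.432. Replicate 6 was apart for Hoxa10 at -0.828, Hoxb9 at 0.538, Lhx4 at -0.237, Tbx18 (probe 16849) at 0.828 and Foxn3 at -1.28. Replicate 1 held Hoxa13 at 0.68, Lhx1 at -0.436 and Foxd4 at -0.424, and replicate 2 held Hoxd12 at -0.239, Sox11 (probe 1426) at 0.693 and Sox7 (probe 11964) at 0.593. Replicate 5 held Hoxa7 at -0.45, Hoxb5 at -0.622 and Tbx5 at 0.512, and replicate 3 held Hoxd11 at -1.18.

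Uncx was the member called in opposite directions against stroma, with a difference of -1.33 between terminal end buds and ducts.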

How the results depend on the processing

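Results were 234 values of named genes, of which 158 were called. Of those, 121 stayed called in the same direction under every alternative planned, and 75 also on the arrays up to 193 alone and from 196 on alone, fits with fewer arrays. The Hoxa3 duct call changed sign with the mean of its probes (-0.117), and Six4 in terminal end buds was at -0.01 on the arrays up to 193. Counts of member probes against stroma stayed within 1.5 times, except with a minimum of 0.5, which left 6 of 17 lower in terminal end buds, 17 of 26 higher and 2 of 8 lower in ducts, and on the arrays up to 193, with 7, 14 and 3. Between structures, 13 higher became 7 under quantile normalization, 8 with a common spread, 3 up to 193, 7 from 196 on and 7 with the minimum. There, 9 lower became 5 under quantile normalization, 1 up to 193 and 4 with the minimum. Leaving out each array gave 29 to 34 and 14 to 19 against stroma in terminal end buds, 22 to 28 and 6 to 9 in ducts, and 11 to 13 and 6 to 11 between structures, with 6 without terminal end bud replicate 6. The labels give no replicate numbers, but the array numbers form 6 neighbouring pairs of 1 terminal end bud and 1 duct array. Deviations from the group means, over all probes, correlated at -0.0618 to 0.28 within pairs, and 4 of 12 arrays correlated best with their own pair, so the pairing stayed an alternative. With the pair as a block the counts were 32 and 18 in terminal end buds, 25 and 8 in ducts, and 14 and 9 between structures. Irx1 (adjusted p = 0.034) and Irx2 (0.0491) then passed between structures and Foxc1 (0.0381) in terminal end buds, while Dlx1 (0.0647) and Tbx19 (0.0511) between structures, Sox6 (0.0503) and Tle6 (0.0812) in terminal end buds and Hoxa3 (0.0507) in ducts did not. Signal over background was not analysed here.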

Other observations

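Noncoding RNAs that carry the names of these genes lie outside the rule and were read from 6 probes, chosen after their values were seen. Sox6os, named after the opposite strand of Sox6, ranged from -1.65 to -1.06 on terminal end bud arrays and from -0.84 to -0.34 on duct arrays. Its means were -1.27 (SE 0.08, adjusted p = 1.95e-08) and -0.62 (SE 0.08, adjusted p = 6.42e-05), a difference of -0.65 (adjusted p = 0.00126) with no overlap, while Sox6 itself was at -0.386 and -0.32. Dlx6os2 was at 0.405 in ducts (adjusted p = 0.000412) and 0.102 in terminal end buds, where Dlx6 was at -0.099 and 0.076. Six3os1 was at 0.256 in terminal end buds (adjusted p = 0.0103). Hoxaas2, Hoxa11os and Hoxd3os1 were between -0.097 and 0.139 in both structures and passed in 0 comparisons. No source used here says whether these probes read 1 strand only.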
